A study of Arabidopsis thaliana with 12 samples.

Results

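The genes described here are the neighbours of PIP2;5 (AT3G54820), the mutated gene of the study, on chromosome 3 of Arabidopsis thaliana. They are the count table rows from AT3G54600 to AT3G55100 in order of locus number, without PIP2;5 itself and without AT3G54890, which gives 52 genes of the 25424 in the table. Of these, 22 have lower and 30 have higher locus numbers than PIP2;5, and 30 carry a gene symbol. In the TAIR10.1 annotation they span 212 kb, with 24 genes on the plus strand and 28 on the minus strand. The same window holds 2 further annotated loci that are not analysed here, among them the kinetochore gene AT3G54630.

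RNA was sequenced from dissected inflorescence meristems, the shoot tips that form flowers, in 12 libraries. The groups were the mutant, called pip2 here, and its wild type col0, each kept in high or in low air humidity, with 3 libraries each. The labels write the mutant as pip2d and the design text names PIP2;5, without stating the kind of mutation, the number of alleles or the plants pooled per library, so p-values rest on the spread among the libraries alone. Library totals ran from 17850187 to 28445060 counts, and the log2 CPM of libraries within a group correlated at 0.982 to 0.990 across genes. Of 11 markers of the inflorescence meristem and young flower primordia, 10 were in the table and had counts in every library. CLV3 was not in the table, and UFO was as low as 0.0871 CPM in a pip2 library at high humidity. Over all libraries the meristem markers summed to 395 to 435 CPM, those of green tissue to 6760.5 to 8689.7 CPM and those of vascular tissue to 142 to 232 CPM. Markers of older anthers summed to 4002 to 4508 CPM in pip2 and 3491 to 4488 CPM in col0 at high humidity, and to 2995 to 3873 CPM in pip2 and 2543 to 3447 CPM in col0 at low humidity, and the part of such tissue in the results was not tested. No marker of any tissue list was called between genotypes at either humidity.

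A mutant line can differ from its wild type near the mutated gene as well as in it. An inserted sequence can alter transcription of adjacent genes, and a stretch of chromosome selected together with the mutation can carry other sequence differences. The levels of neighbouring genes are therefore a common check on a mutant. PIP2;5 encodes an aquaporin, a water channel of the plasma membrane. The window around it holds mostly unrelated genes, as is usual in plant genomes. Among them are regulators of transcription, of cell division and of meristem size, enzymes of primary metabolism, transporters and membrane traffic genes. TON1A and TON1B, and ABCG16 and ABCG17, are tandem pairs of related genes.

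PIP2;5 itself was read in 13, 25 and 20 counts in pip2 and 974, 1082 and 1509 counts in col0 at high humidity. At low humidity it had 24, 12 and 11 counts in pip2 and 1441, 1256 and 1401 counts in col0. The pip2 mean in CPM (counts relative to the TMM-scaled library total) was thus 1.89% of the col0 mean at high humidity and 1.11% at low humidity.

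Each of the 49 neighbours with enough counts was tested between genotypes at each humidity with the quasi-likelihood test of edgeR, fitted to all tested genes. Values after a gene are log2 fold changes ± SE, pip2 minus col0 unless stated, with 3 libraries per group. A gene is called, and said to have risen or fallen, where its Benjamini-Hochberg adjusted p over all 21897 tested genes is under 0.05. The other 3 neighbours had at most 10 counts in any library and were not tested. They are the long noncoding RNA AT3G54625 (1 to 7 counts), AT3G54925 (0 to 10) and AT3G54940 (0 to 8).

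At low humidity 2 of the 49 tested neighbours differed between genotypes, and both fell in pip2. They were BME3, a GATA zinc finger transcription factor known from seed germination, and PMR6, a pectate lyase-like gene whose loss makes Arabidopsis resistant to powdery mildew. BME3 stood at 76.4% and PMR6 at 77.2% of the col0 mean. Across all tested genes 2.98% were called at low humidity (2.08% lower in pip2), so the 4.08% among the neighbours is 2 genes at a share near the background. With the replicate number as a block, 1084 of all tested genes were called at low humidity in place of 652, and the called neighbours were the same 2. At high humidity none of the neighbours was called.

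BME3 (AT3G54810) is the row next to PIP2;5, and 2.93 kb lie between the annotated genes, which are both on the plus strand. At low humidity it had 47.7, 50.2 and 51.8 CPM in the pip2 libraries and 67.2, 62.6 and 66.1 CPM in the col0 libraries. All 3 mutant libraries lay below all 3 wild-type libraries, and the spread within each genotype was a small part of the distance between them. The difference was -0.39 ± 0.06, with a 95% interval of -0.52 to -0.26 (edgeR, Benjamini-Hochberg adjusted p = 0.00111). In the authors' TPM, which are scaled for gene length, the low-humidity means were 35.1 ± 1.16 in pip2 and 45.3 ± 2.85 in col0 (SD, n = 3 each).

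At high humidity BME3 had 38.9, 43.0 and 41.5 CPM in pip2 and 45.2, 48.5 and 49.1 CPM in col0. The mutant libraries again lay below the wild-type libraries, with a smaller distance. The value was -0.21 ± 0.06, and its adjusted p of 0.221 (edgeR) missed the threshold. The difference between the 2 humidities, taken as an interaction term, was 0.18 ± 0.09 (adjusted p = 0.691), so the low-humidity call does not show that the genotype difference depends on humidity.

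The 250 bases before the annotated start of BME3 and of PIP2;5 are shown because these adjacent plus-strand genes both had less RNA in pip2 at low humidity. PIP2;5 is the mutated gene and was also at 1.89% of the col0 mean at high humidity. Whether either stretch has a part in these differences was not tested. Both are read from RefSeq's TAIR10.1 genome, plus strand, at chr3:20295880-20296129 for BME3 and chr3:20301509-20301758 for PIP2;5. Capitals mark GATA on either strand (GATA or TATC), the core that gives the GATA factors, the family of BME3, their name.
BME3: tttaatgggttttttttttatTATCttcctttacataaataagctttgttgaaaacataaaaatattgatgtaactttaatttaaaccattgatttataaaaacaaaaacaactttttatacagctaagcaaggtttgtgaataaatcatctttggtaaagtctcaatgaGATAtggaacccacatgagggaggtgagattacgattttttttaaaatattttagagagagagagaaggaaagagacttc
PIP2;5: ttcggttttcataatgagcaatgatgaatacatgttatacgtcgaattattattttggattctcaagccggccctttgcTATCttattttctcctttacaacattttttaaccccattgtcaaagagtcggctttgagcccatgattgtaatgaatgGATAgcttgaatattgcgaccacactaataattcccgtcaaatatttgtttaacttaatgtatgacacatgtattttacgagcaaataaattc
Each stretch holds 2 matches to GATA. Of 27443 stretches of the same length before annotated genes, 87% hold at least 1 match, with a median of 2. TATAAA on either strand has 3 matches before BME3, where the forward match overlaps a reverse match, and 0 before PIP2;5. Of all stretches 47.3% hold it. ACGTG, the core of abscisic acid response elements, is in neither stretch and in 22.9% of all stretches. These are letter matches in the reference genome, and the sequence of the mutant line was not analysed here.

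PMR6 (AT3G54920) lies 11 rows and 40.5 kb from PIP2;5. In low humidity its libraries had 80.2, 73.8 and 85.1 CPM in pip2 and 107, 102 and 101 CPM in col0. The mutant libraries all lay below the wild-type libraries. The difference was -0.37 ± 0.06, with a 95% interval of -0.51 to -0.24 (edgeR, adjusted p = 0.00216).

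At high humidity PMR6 had 124, 124 and 139 CPM in pip2 and 119.6, 122 and 124 CPM in col0. The pip2 libraries lay just above the col0 libraries, by less than 1 CPM at the nearest point, with the pip2 mean at 106% of the col0 mean, and the value was 0.09 ± 0.06 (adjusted p = 0.764). The interaction was 0.46 ± 0.09 (edgeR, adjusted p = 0.0292), the single call among the 49 neighbours, where 0.443% of all tested genes were called. It was also the neighbour with the smallest adjusted p for humidity in pip2, where it rose by 0.70 ± 0.06 in high humidity (adjusted p = 6.57e-07), against 0.24 ± 0.06 in col0 (adjusted p = 0.00884). The interaction call is weakly held: it was lost in 11 of 21 other settings, with adjusted p of 0.00195 to 0.172 and log2 values of 0.40 to 0.51. Among them were 9 of the 12 fits that left out 1 library, namely all but those without pip2 low replicate 3, pip2 high replicate 1 or pip2 high replicate 2.

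PMR6 shares 810 bases with AT3G54910 on the opposite strand, and the sources used here do not state whether strand entered the counting. In counts AT3G54910 had 24.6, 22.1 and 27.0 CPM in pip2 and 22.8, 25.8 and 23.3 CPM in col0 at low humidity, which overlap (0.04 ± 0.10). In the authors' TPM it had 40.8, 32.5 and 40.8 in pip2 and 47.7, 44.5 and 44.6 in col0 at low humidity, which do not. The TPM difference was -0.27 on the log2(TPM + 0.1) scale, in the direction of PMR6, and missed the threshold (limma, adjusted p = 0.149). Whether reads of PMR6 enter the TPM of AT3G54910 was not tested. Among the 49 neighbours, 4 had TPM and count differences over 0.2 log2 apart at a humidity, on the same TPM scale. The others were the lowly expressed AT3G54730, ARP1 and SMZ, of which SMZ shares 544 bases with AT3G54980. Counts and TPM were also far apart for the untested AT3G54625, with 1 to 7 counts but 7.84 to 15.1 TPM over the libraries. It shares 1928 bases with AT3G54630 on the opposite strand, and the source of its TPM was not tested.

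**Figure D1:**
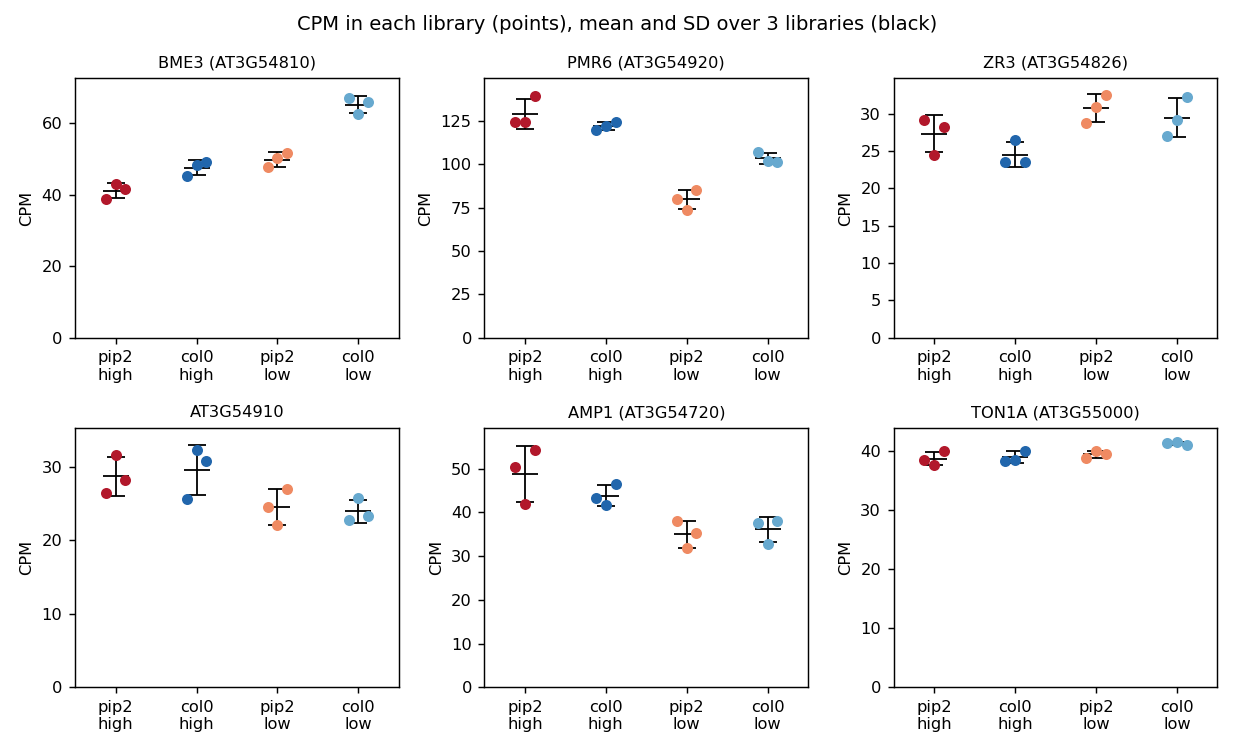
CPM in each of the 12 libraries (points) with the group mean (line) for 6 neighbours, in the group order pip2 high, col0 high, pip2 low and col0 low. BME3 lies lower in pip2 than in col0 at both humidities (means 41.1 against 47.6 and 49.9 against 65.3 CPM), while the PMR6 groups lie apart at low humidity (79.7 against 103 CPM) and ZR3, AT3G54910 and AMP1 overlap between genotypes at each humidity.

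**Figure D2:**
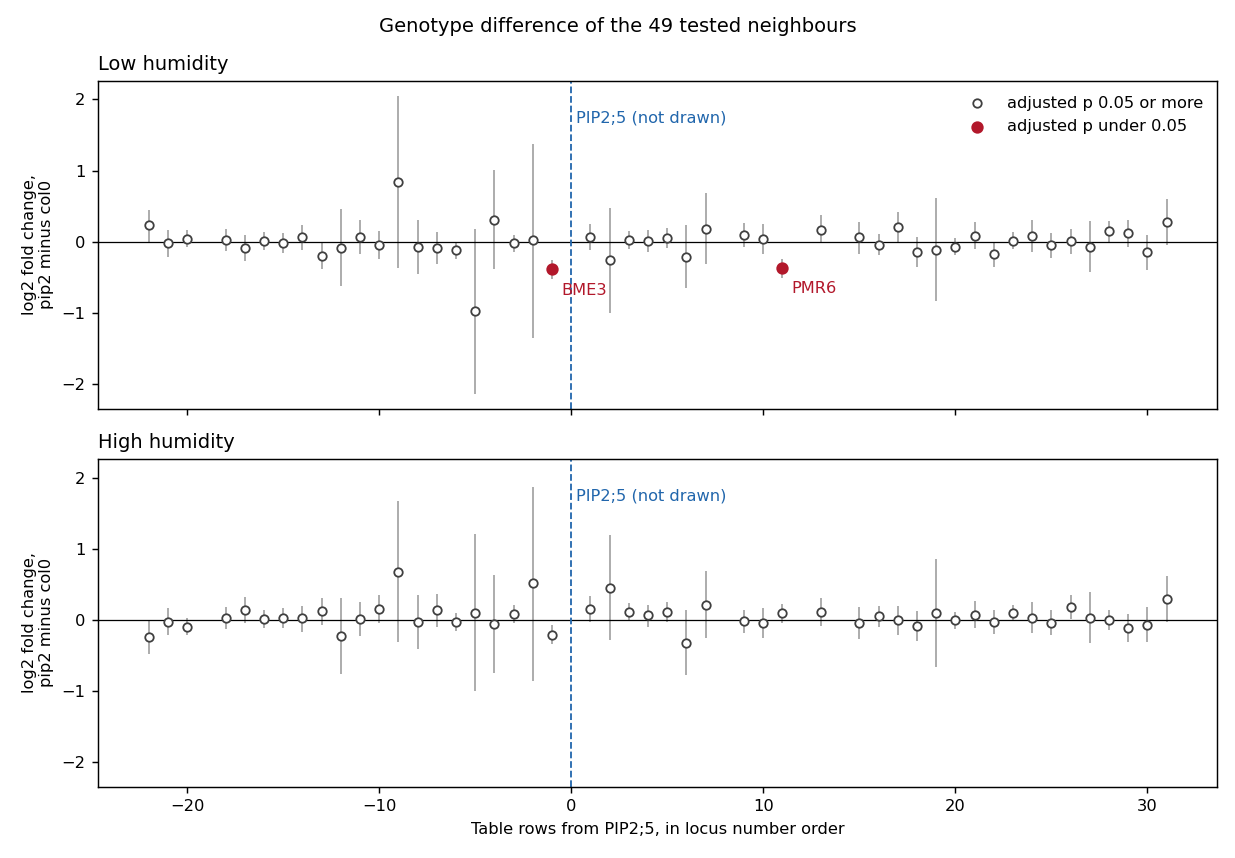
Log2 fold change, pip2 minus col0, of the 49 tested neighbours at each humidity, against table rows from PIP2;5 in locus number order. Bars are 95% intervals, and the 2 genes called at low humidity stand at rows -1 (BME3) and 11 (PMR6).

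The 5 rows on each side of PIP2;5 were read one by one. On the side of lower locus numbers these are ARP1, AT3G54780, AT3G54790, AT3G54800 and BME3, and on the other side ZR3, AT3G54830, ARA6, PUB14 and ATVPS33. Of these 10, BME3 alone was called, at low humidity, where 2.98% of all tested genes were called. At high humidity the libraries of the genotypes did not overlap for 5 of the 10, against 14% of all tested genes, and at low humidity for 2 of the 10, against 19.6%. The 5 at high humidity were BME3, lower in all pip2 libraries, and AT3G54790, AT3G54830, ARA6 and ATVPS33, higher in all pip2 libraries. No one of these passed the test, with adjusted p of 0.221 to 0.766.

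ZR3 (AT3G54826), which encodes a zinc ribbon protein, is the first row beyond PIP2;5. It had 29.2, 24.5 and 28.2 CPM in pip2 and 23.6, 26.5 and 23.5 CPM in col0 at high humidity (0.15 ± 0.09, edgeR adjusted p = 0.669). At low humidity it had 28.8, 30.9 and 32.5 CPM in pip2 and 27.0, 29.2 and 32.2 CPM in col0 (0.06 ± 0.09, edgeR adjusted p = 0.842). The genotypes overlapped at both humidities, and the 95% intervals lay within 0.5 log2 of no difference.

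ARA6 (AT3G54840), a plant-specific RAB5-type GTPase of endosomes, had 55.0, 57.6 and 55.6 CPM in pip2 and 51.6, 53.6 and 50.2 CPM in col0 at high humidity. At low humidity it had 50.5, 51.9 and 48.3 CPM in pip2 and 47.8, 52.3 and 48.3 CPM in col0. The pip2 libraries lay above the col0 libraries at high humidity by a narrow margin and among them at low humidity, with values of 0.11 ± 0.06 and 0.02 ± 0.06.

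ATVPS33 (AT3G54860), a subunit of the complexes that tether membranes at the vacuole, had 42.8, 43.7 and 39.2 CPM in pip2 and 38.1, 39.1 and 39.0 CPM in col0 at high humidity. In low humidity the gene had 38.5, 41.9 and 37.8 CPM in pip2 and 39.8, 38.1 and 36.5 CPM in col0. As for ARA6, the groups were apart at high humidity and overlapped at low humidity, at 0.11 ± 0.07 and 0.05 ± 0.07.

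The U-box ubiquitin ligase gene PUB14 (AT3G54850) had 28.1, 25.7 and 26.9 CPM in pip2 and 24.2, 27.4 and 25.8 CPM in col0 at high humidity. It had 22.9, 24.2 and 24.6 CPM in pip2 and 22.8, 24.8 and 23.5 CPM in col0 at low humidity. These values overlap throughout. AT3G54790, an ARM repeat gene, had 41.1, 40.2 and 39.1 CPM in pip2 and 36.8, 37.7 and 39.0 CPM in col0 at high humidity, and 39.8, 41.6 and 38.7 CPM in pip2 and 40.4, 40.6 and 41.0 CPM in col0 at low humidity. Its high-humidity groups were apart by less than 1 CPM.

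A pair of near rows varied far more between replicates than the other near rows above 20 CPM. AT3G54800, annotated with a PH and a START domain, had 38.1, 74.6 and 40.2 CPM in pip2 and 54.6, 42.7 and 12.3 CPM in col0 at high humidity. It had 44.3, 63.7 and 28.1 CPM in pip2 and 60.2, 50.3 and 24.1 CPM in col0 at low humidity. Its lowest library was replicate 3 in 3 of the groups, and its within-group coefficient of variation was 45.2%, against a median of 7.2% over the tested neighbours.

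AT3G54830, an amino acid transporter family gene, had 32.2, 47.0 and 32.9 CPM in pip2 and 28.8, 32.0 and 21.4 CPM in col0 at high humidity. It had 26.3, 37.6 and 21.2 CPM in pip2 and 34.9, 45.5 and 21.6 CPM in col0 at low humidity. Replicate 2 was its highest library in each of the groups, and its within-group coefficient of variation was 26.8%. For both genes the 95% interval of the genotype difference reached past 1 log2 at both humidities, and so included a 2-fold difference.

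The last of the near rows were at low levels. ARP1 (AT3G54770), an RNA-binding protein gene, had 6, 44 and 13 counts in pip2 and 22, 16 and 28 counts in col0 at high humidity, and 19, 16 and 4 counts in pip2 and 26, 26 and 23 counts in col0 at low humidity. The RING finger gene AT3G54780 had 46, 26 and 33 counts in pip2 and 48, 23 and 60 counts in col0 at high humidity, and 43, 42 and 35 counts in pip2 and 29, 28 and 37 counts in col0 at low humidity. ARP1 lay lower in all pip2 libraries at low humidity (-0.98 ± 0.54, edgeR adjusted p = 0.467), with a 95% interval that included 0.

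By role, the transcription and chromatin genes had 1 of 4 lower at low humidity, BME3, where 2.08% of all tested genes were lower. The role lists split the same 49 neighbours, so this is the BME3 call given above. HAG1, the histone acetyltransferase also known as GCN5, stood at -0.03 ± 0.09 at high and -0.02 ± 0.09 at low humidity. The bZIP factor gene BZIP25 stood at -0.10 ± 0.05 and 0.04 ± 0.06. SMZ, an AP2-like repressor of flowering, was read in 17 to 21 counts in pip2 and 18 to 25 in col0 at high humidity, and in 16 to 28 counts in pip2 and 18 to 37 in col0 at low humidity.

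Of the 5 tested genes of cell division and replication none was called at either humidity. FBL17, an F-box gene for the breakdown of cell cycle inhibitors, had the largest high-humidity value among them (0.14 ± 0.08, against -0.09 ± 0.08 at low humidity). The cohesin gene TTN8 stood at 0.02 ± 0.07 and -0.02 ± 0.07, and CDT1B, which licenses replication, at 0.01 ± 0.11 and 0.07 ± 0.11. The tandem genes TON1A and TON1B, needed for the preprophase band that marks the division plane, were not called either. TON1A, the steadiest tested neighbour by its within-group coefficient of variation of 1.87%, had 38.5, 37.6 and 39.9 CPM in pip2 and 38.2, 38.5 and 40.0 CPM in col0 at high humidity, which overlap (-0.01 ± 0.06). At low humidity it had 38.8, 39.9 and 39.4 CPM in pip2 and 41.3, 41.5 and 41.0 CPM in col0, which lie apart by a small step that missed the threshold (-0.07 ± 0.06, edgeR adjusted p = 0.687). The coding sequences of the pair sequences are 89.4% identical in TAIR10.1 and share 0% of 50-base windows.

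AMP1 (AT3G54720), a peptidase-like gene whose loss enlarges the shoot meristem, had 50.4, 41.8 and 54.3 CPM in pip2 and 43.3, 41.7 and 46.4 CPM in col0 at high humidity. It had 37.9, 31.8 and 35.3 CPM in pip2 and 37.6, 32.8 and 38 CPM in col0 at low humidity. The genotypes overlapped at each humidity, and the values were 0.15 ± 0.09 and -0.05 ± 0.09. Of 9 genes of primary metabolism and redox, of 4 transporter genes and of 4 trafficking and cytoskeleton genes, none was called at either humidity. The metabolism genes ranged from -0.24 to 0.12 at high and from -0.20 to 0.23 at low humidity, with DJ1F at -0.24 and 0.23 and the arabinose-5-phosphate isomerase-like gene SETH3 at 0.12 and -0.20. Of 6 tested genes for cell wall, ubiquitin, lipases, phosphatases and proteases, 1 fell at low humidity, PMR6, where 2.08% of all tested genes fell. Of the 16 others, none was called.

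Across the 49 neighbours the median difference was 0.02 at high and 0.01 at low humidity, beside 0.01 and -0.00 over all tested genes. The median absolute difference was 0.09 and 0.08, beside 0.09 and 0.11 over all tested genes. The 95% interval lay inside 0.5 log2 on either side of 0 for 39 neighbours at high and 37 at low humidity. It reached 1 log2 or more from 0 for AT3G54730, ARP1, AT3G54800 and AT3G54830 at both humidities and for AT3G54780 at low humidity. At high humidity edgeR called 0 of 49 neighbours, where 0.589% of all tested genes were called, and DESeq2 and limma also called 0. An unadjusted p under 0.05 was found for 3 of the 49 neighbours (6.12%, beside 8.6% of all genes) at high humidity and for 5 (10.2%, beside 13.7%) at low humidity. Groups of libraries did not overlap for 10 neighbours at high humidity (20.4%, beside 14%) and for 9 at low humidity (18.4%, beside 19.6%).

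The 2 sides of PIP2;5 and the stretches beyond the window were read with the same fit. With lower locus numbers 1 of 21 tested neighbours was called at low humidity (BME3), and with higher ones 1 of 28 (PMR6). In the next stretch of lower locus numbers, AT3G54090 to AT3G54590, it was 1 of 43 genes, the aspartyl protease gene AT3G54400 (-0.30 ± 0.06, edgeR adjusted p = 0.0111). In the next stretch of higher ones, AT3G55110 to AT3G55610, it was 1 of 47, the alpha/beta-hydrolase gene AT3G55190 (0.78 ± 0.20, edgeR adjusted p = 0.047). On the rest of chromosome 3 it was 132 of 4342 (3.04%). At high humidity none of these stretches had a called gene, and the rest of the chromosome had 28 (0.645%). P5CS2, a gene of proline synthesis at the far end of the higher stretch, was called for the interaction (-0.59 ± 0.11, edgeR adjusted p = 0.0292), with the sign opposite to that of PMR6.

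**Figure D3:**
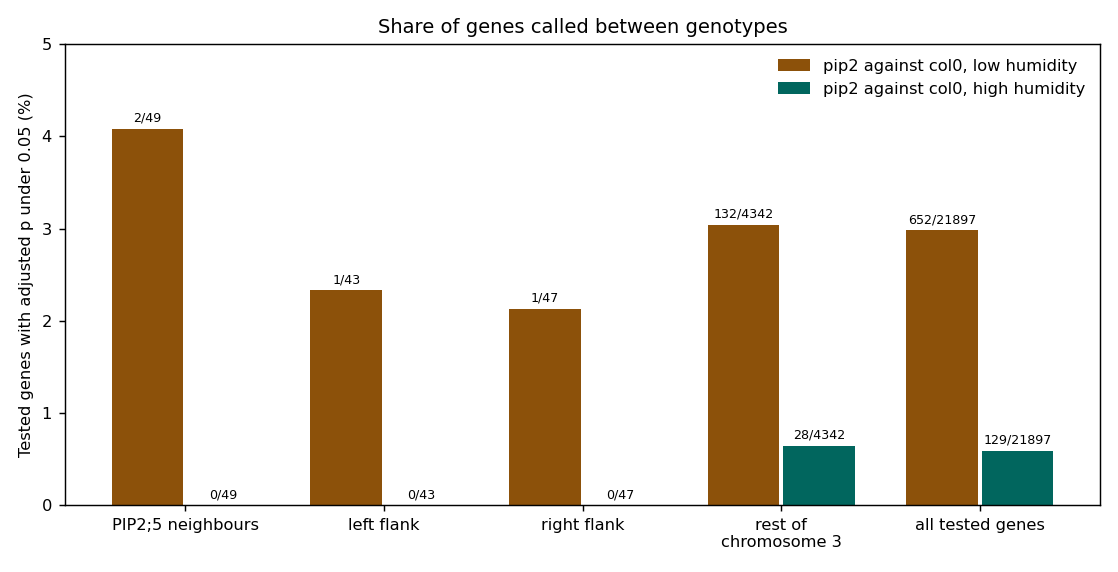
Share of tested genes called between genotypes at each humidity (in percent) for the neighbours, the stretches on either side, the rest of chromosome 3 and all tested genes. The neighbours stand at 0% at high and 4.08% at low humidity, beside 0.589% and 2.98% of all tested genes.

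The same sign at both humidities was seen in 28 of the 49 neighbours (57.1%, beside 57% of all tested genes), 17 of them higher and 11 lower in pip2. The genotype differences at the 2 humidities share no library. Across the 49 genes they correlated with Pearson's r of 0.28, beside 0.40 over all tested genes, and with Spearman's rho of 0.08. The points are genes of the same libraries and not independent replicates. BME3 is thus 1 of the 11 neighbours lower in pip2 at both humidities.

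Levels differed widely between the neighbours. In the authors' TPM the median of the 50 neighbours with a TPM value was 19.6, beside 15.1 over all genes with a TPM value. The highest was CXIP1, a plastid glutaredoxin gene, with 87.7, 100 and 97.3 TPM in pip2 and 101, 99.5 and 90.1 TPM in col0 at high humidity, and 93.2, 103 and 98.0 TPM in pip2 and 93.3, 88.4 and 89.0 TPM in col0 at low humidity. The next were AT3G54760, annotated as dentin sialophosphoprotein-like, at 76.9 TPM over all libraries and PMR6 at 72.0. The CXIP1 groups overlapped, with a genotype difference of -0.02 ± 0.08 at high and 0.10 ± 0.08 at low humidity.

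AT3G54760 had 75.5, 65.6 and 71.3 TPM in pip2 and 71.7, 70.7 and 76.6 TPM in col0 at high humidity, and 78.8, 75.3 and 82.9 TPM in pip2 and 92.1, 79.1 and 83.7 TPM in col0 at low humidity. The lowest tested neighbours were the kinesin gene MRH2 (0.933 TPM on average), which acts in root hairs, AT3G54730, annotated as a transcription repressor (0.791), and ARP1 (0.787). MRH2 had 48, 40 and 41 counts in pip2 and 54, 52 and 88 counts in col0 at high humidity, and 60, 57 and 59 counts in pip2 and 68, 51 and 80 counts in col0 at low humidity.

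AT3G54730 had 15, 16 and 24 counts in pip2 and 7, 17 and 17 counts in col0 at high humidity, and 11, 13 and 9 counts in pip2 and 12, 1 and 5 counts in col0 at low humidity. At such counts its differences of 0.67 ± 0.47 and 0.84 ± 0.57 were not called, although they are the largest positive values in the window at each humidity. In the order of mean TPM, 47 of the 48 adjacent pairs overlap in their range over the libraries.

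**Figure D4:**
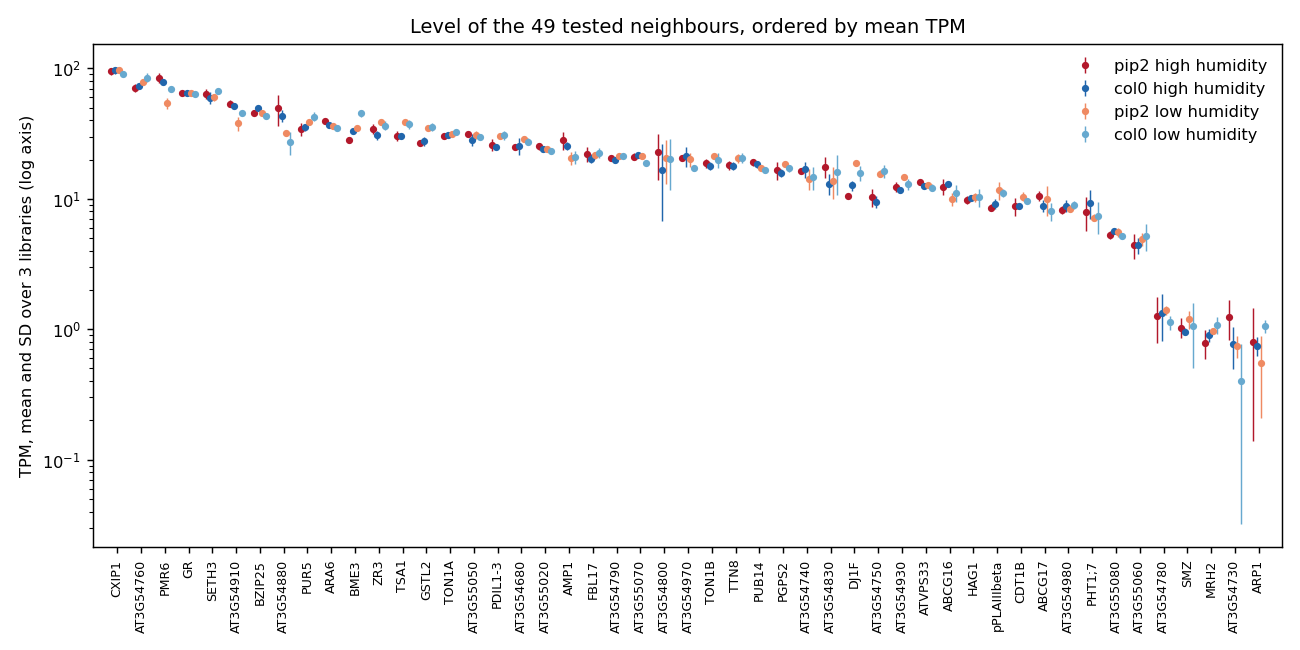
Level of the 49 tested neighbours in each group, as mean TPM with SD over 3 libraries on a log axis, ordered by the mean over all libraries. Levels run from 95 TPM for CXIP1 to 0.787 TPM for ARP1. The groups of a gene lie close together beside this whole range, but 47 of the 48 adjacent pairs overlap in their range over the libraries.

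More of the neighbours were called for humidity than for genotype. In high humidity 10 of the 49 changed in pip2 (3 rose and 7 fell, 20.4%, beside 24.2% of all tested genes) and 16 changed in col0 (5 rose and 11 fell, 32.7%, beside 30.2%). Of all tested genes 12.3% rose and 11.9% fell in pip2, and 14.3% rose and 15.9% fell in col0. These comparisons share libraries with the genotype differences above. Of the neighbours called, 9 were called in both genotypes, in the same direction: AMP1 and PMR6 rose, and BME3, DJ1F, TSA1, AT3G54750, pPLAIIIbeta, PDIL1-3 and GSTL2 fell. Called in pip2 alone was AT3G54880, and called in col0 alone were BZIP25, TTN8, AT3G54760, ZR3, AT3G54910, AT3G54970 and PUR5. For none of these 17 genes but PMR6 did the difference between the genotypes' responses pass the test.

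AT3G54750, annotated as a downstream neighbour of Son protein, had the largest called fall in col0. It had 27.1, 20.6 and 22.5 CPM in high and 32.3, 33.9 and 37.6 CPM in low humidity in pip2 (high minus low -0.57 ± 0.11, edgeR adjusted p = 0.00107). In col0 it had 24.5, 19.5 and 20.3 CPM in high and 39.8, 34.3 and 36.2 CPM in low humidity (-0.78 ± 0.11, edgeR adjusted p = 5.39e-05). All high-humidity libraries lay below all low-humidity libraries in both genotypes.

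DJ1F, a DJ-1 family gene, had 12.6, 14.3 and 12.9 CPM in high and 23.2, 24.5 and 22.1 CPM in low humidity in pip2 (-0.81 ± 0.11, edgeR adjusted p = 5.07e-05). In col0 it had 17.7, 14.7 and 14.7 CPM in high and 16.7, 20.7 and 22.3 CPM in low humidity (-0.34 ± 0.11, edgeR adjusted p = 0.0251). The groups were apart in pip2 and overlapped in col0, and the interaction of -0.47 ± 0.16 missed the threshold (adjusted p = 0.377). The tryptophan synthase gene TSA1 fell by 0.33 on the log2 scale in each genotype, and GSTL2, a lambda-class glutathione transferase gene, by 0.36 in pip2 and 0.37 in col0. BME3 fell by 0.28 in pip2 and by 0.46 in col0, and the meristem gene AMP1 rose by 0.48 ± 0.09 in pip2 (edgeR adjusted p = 0.00131) and by 0.28 ± 0.09 in col0 (edgeR adjusted p = 0.033).

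**Figure D5:**
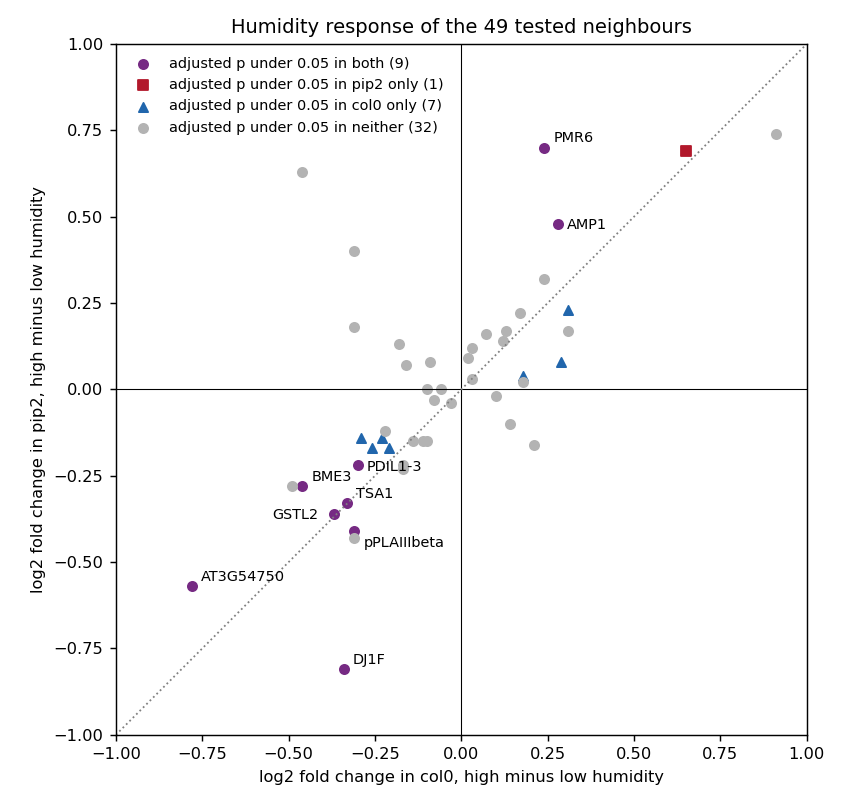
Log2 fold change of the 49 tested neighbours in high against low humidity, in pip2 (vertical axis) against col0 (horizontal axis), coloured by where the gene was called. PMR6 lies farthest above the dotted line of equal response among the called genes (0.70 in pip2 and 0.24 in col0), and DJ1F lies below it (-0.81 and -0.34).

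Outside the window, 35 genes that act in the same complexes or families as genes of the window were read as well. Examples are the ADA2 partners of HAG1, cohesin subunits, the vacuolar tethering complexes and the other ARK kinesins. The list also holds the kinetochore genes NUF2, SPC24 and SPC25, which go with AT3G54630, a window gene that is not analysed here. Of the 34 tested, edgeR called 0 between genotypes at high and at low humidity, where 2 and 5 had an unadjusted p under 0.05, beside 8.6% and 13.7% of all tested genes. High humidity changed 8 of them in pip2 (1 rose and 7 fell, 23.5%, beside 24.2% of all tested genes) and 15 in col0 (2 rose and 13 fell, 44.1%, beside 30.2%).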

How the data were processed

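The authors' deposited count table holds raw read counts per gene and library, and their second deposited table holds TPM values, per the file headers. The submitters' processing notes name Trimmomatic 0.39, HISAT2 2.2.1, featureCounts 2.0.6 and the TAIR10 build, without parameters, and the sources used here do not state strand use. The count table lists 0 genes without a count in col0 low replicate 1 but 884 to 1278 in each other library. A locus without a count in that library is thus not analysed here. Whether the 2 window loci outside the count table were left out for this reason was not tested. Columns were matched to samples by title, and 0 columns were left over. The neighbours, role lists and tests were chosen with earlier results of these data known.

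Genes were filtered with filterByExpr (minimum count 10, minimum total 15), which left 21897 of 25424. Libraries were scaled by TMM (factors 0.972 to 1.04) and fitted with edgeR 4.0.16 (robust quasi-likelihood, two-sided) in R 4.3.3, with 1 mean per group and Benjamini-Hochberg adjustment. The robust setting was chosen after the files were seen. The SE is the size of the log2 fold change divided by the square root of F. Levels between genes use TPM, and CPM is per TMM-scaled total. DESeq2 1.42.0, limma 3.58.1 on log2(TPM + 1) and log2(TPM + 0.1), other filters, a replicate block and leaving out each library were alternatives. No TPM was given for 2537 genes. RefSeq's TAIR10.1 supplied names, strands, order, gaps and sequences, and all 52 identifiers matched it. The deposited tables hold no coordinates.

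Replicates differed beyond sampling noise (chi-square per degree of freedom 4.85 to 11.4). Same-numbered libraries of the 2 genotypes deviated together at low humidity (correlations 0.158 to 0.205), as did high and low in col0 (0.174 to 0.373), so numbers pair them there by the rule that every correlation exceeds 0.1. They did not between genotypes at high humidity (-0.00923 to 0.235) nor between humidities in pip2 (-0.0303 to 0.207).

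On simulated counts with 200 of 21897 genes changed, the test recovered 29% of changes of 0.4 log2 and 72% of changes of 1 log2 at high humidity, 30% and 79% at low humidity, and 6% and 65% for the interaction. Full values are given for neighbours called between genotypes or for the interaction, the 5 rows on each side of PIP2;5, and the 3 highest and 3 lowest by TPM. AMP1, AT3G54750, DJ1F and TON1A were shown in full after their values were seen. So were AT3G54910, by library at low humidity only, and SMZ, as ranges of counts.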

Additional observations from a re-analysis of the deposited data

Results flagged for a closer look

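PMR6 is singled out because its genotype difference differed between the humidities by a test of that difference itself. The difference at high minus that at low humidity was 0.46 ± 0.09 on the log2 scale (edgeR interaction, Benjamini-Hochberg adjusted p = 0.0292, 3 libraries per group). The interaction call is weakly held, as it was lost in 11 of 21 other settings. At low humidity all 3 pip2 libraries lay below the col0 libraries (73.8 to 85.1 against 101 to 107 CPM). At high humidity all 3 lay just above (124 to 139 against 119.6 to 124 CPM), a difference that was not called (0.09 ± 0.06, edgeR adjusted p = 0.764). PMR6 shares 810 bases with AT3G54910 on the other strand, whose interaction in counts was -0.08 ± 0.14 (edgeR adjusted p = 0.948).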

How the results depend on the processing

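The counts of called neighbours were 2 at low and 0 at high humidity in all 22 alternatives run for each. BME3 and PMR6 kept their low-humidity calls in 22 of 22 alternatives, with adjusted p of 1.41e-05 to 0.0106 for BME3 and 2.39e-05 to 0.0289 for PMR6. The interaction called 0 neighbours with limma on log2(TPM + 1) and on log2(TPM + 0.1) (adjusted p of PMR6 0.171 and 0.172), and 0 to 1 on leaving out 1 library. Among all tested genes, DESeq2 called 249 at high humidity (129 with edgeR) and 186 for the interaction (97 with edgeR), and limma called 42 for the interaction with either pseudocount. Leaving out 1 library gave 78 to 154 genes at high humidity (78 without pip2 high replicate 3), 390 to 809 at low humidity (425 without col0 low replicate 1 and 390 without pip2 low replicate 1) and 32 to 110 for the interaction (32 without col0 high replicate 2). For humidity in pip2 it gave 8 to 11 neighbours, beside 4021 to 5344 of all tested genes. For humidity in col0 it gave 9 to 18 neighbours, beside 4766 to 6973 of all tested genes. The neighbours called were 10 without col0 low replicate 1, 9 without col0 high replicate 2 and 10 without col0 high replicate 3. The causes were not tested.

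With the replicate number as a block, 1084 genes were called at low humidity, where the numbers pair the libraries, 314 at high humidity and 197 for the interaction. The block left the neighbours called at 2 at low and 0 at high humidity and at 1 for the interaction. For humidity it called 14 neighbours in pip2 and 17 in col0, beside 6341 and 7576 of all 21897 tested genes. Without the block these all-gene numbers were 5294 and 6614. Of the changes seeded in simulated counts, 30% of those of 0.4 log2 were recovered at low humidity, so differences of that size can be missed.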
